A study of Mus musculus with 6 samples.

Results

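Carbonic anhydrases are zinc enzymes that convert carbon dioxide and water into bicarbonate and a proton, and back. Cells use them to carry CO2 in blood, to supply protons where acid is secreted, as in the bone-resorbing osteoclast, and to buffer tissue such as cartilage, which has no blood vessels and lives largely on glycolysis. Family members differ mainly in where they sit: some are free in the cytosol, others are inside mitochondria, and others are anchored in the cell surface with the active site outside. The mouse genes examined here were *Car1*, *Car2*, *Car3*, *Car13* and *Car8* (cytosol), *Car5b* (mitochondrion), and *Car4*, *Car9*, *Car12* and *Car14* (cell surface). They were chosen by symbol from the gene table, in which all 10 were found among 17854 genes, and 9 of the 10 passed the expression filter.

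The study asked how articular cells derived from injected mesenchymal stromal cells (MSCs) compare with those native to the joint. The MSC-derived group consisted of 3 libraries of Tomato+ cells sorted from the repaired cartilage of C57BL/6 males with knee osteoarthritis, induced by cutting the anterior cruciate ligament and treated by joint injection of *Prrx1*-lineage MSCs from inguinal white fat. The endogenous group consisted of 3 libraries of Tomato+ articular cells of age-matched male *Prrx1-Cre; R26 tdTomato* mice on the same background. In both groups the label was made by Cre driven by *Prrx1* regulatory sequence of limb mesenchyme, which turns on tdTomato for good in a cell and in all its descendants, so the gate is meant to select by ancestry and not by present cell type. The donor cells carried these alleles, whereas the operated C57BL/6 hosts are described without them. Surgery, injection, host and fat or joint origin all differ together between the groups and cannot be told apart, and the age at sorting and the time from injection to sorting of these cells were not given in the sources used here.

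Depth was alike, with 22060628 to 24881796 expected counts per library, so that 3 counts, taken as the limit of detection, equal 0.121 to 0.136 CPM (counts scaled to library size, counting error only). Levels are given as FPKM, which corrects for transcript length. FPKM over all genes summed to 808701 to 813572 in the MSC-derived and 504768 to 573603 in the endogenous libraries, so a level ratio between groups is not the fitted fold change, which was computed from counts. Endogenous replicate 1 stood apart, with 3449 genes at 0 counts against 1323 and 1375 in the other two endogenous libraries. The labelled cell type, chondrocyte, was checked against 18 cartilage genes: all 18 were lower in the MSC-derived libraries, where *Col2a1*, the main cartilage collagen, had 97.9 ± 3.83 FPKM against 7112 ± 30.2 FPKM (SD, n = 3). All 25 genes of a leukocyte list were higher there by the same test, edgeR's quasi-likelihood test at an adjusted p of at most 0.05. In the endogenous libraries a list of 10 bone-forming genes summed to 30414 to 42836 FPKM, beside 26148 to 28452 FPKM for the 18 cartilage genes. Whether the libraries of either group held only cells of the labelled lineage or type was not tested, and the group names follow the labels.

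The members had been chosen with the contrast between the groups already known, so their values are a description and carry no p-value. Of the 9 members tested, 4 (*Car1*, *Car2*, *Car4*, *Car9*) lay past the threshold as higher in the MSC-derived cells and 4 (*Car3*, *Car5b*, *Car8*, *Car12*) as lower. Among all 14289 genes tested, 31.3% were called higher and 30.3% lower. *Car13* was not called, and *Car14* was too low to be tested. The libraries of the 2 groups did not overlap for any of the 9 members, 5 higher and 4 lower, where 38.2% of all genes were separated in the higher and 34.1% in the lower direction. The median log2 fold change of the 9 was 0.71, the value of *Car13*, against 0.05 over all genes tested. This median describes no shared shift: the 4 members called higher lay at 1.70 or above and the 4 called lower at -1.78 or below. With all libraries, 4468 genes were called higher and 4333 lower. Without endogenous replicate 1 it was 5563 and 5686 of 14728 tested, so calls gained in that fit are common. In sorted bulk samples, fewer cells of a type and less RNA per cell cannot be told apart.

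**Figure D1:**
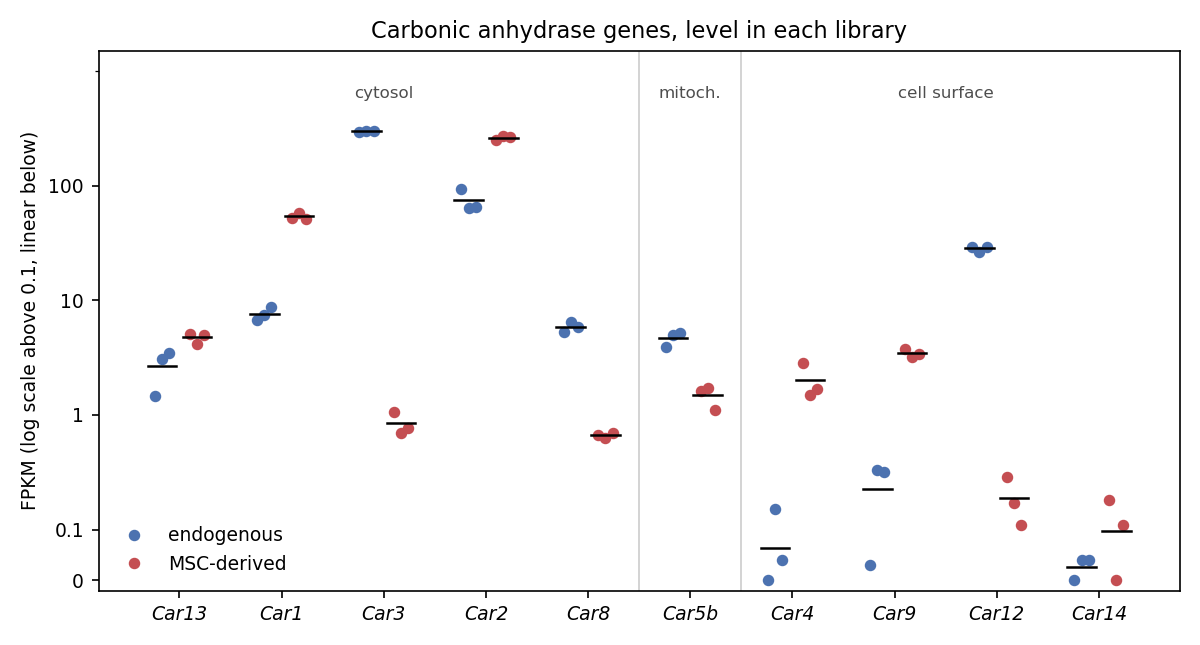
Level of each carbonic anhydrase gene in FPKM (log scale above 0.1, linear below) in the 3 endogenous libraries (blue) and the 3 MSC-derived libraries (red), with the group mean as a line. *Car3* lies at 294 to 299 FPKM in the endogenous libraries and at 0.7 to 1.06 FPKM in the MSC-derived ones, while *Car1* and *Car2* are higher in all 3 MSC-derived libraries.

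Cytosolic members carried most of the family's RNA in both groups. *Car2*, the fast and widespread enzyme of red cells, osteoclasts and many other cells, had 251, 270 and 265 FPKM in the MSC-derived libraries and 92.9, 63.9 and 65.6 FPKM in the endogenous ones. Every MSC-derived library was above every endogenous one, and endogenous replicate 1 was the highest of its group. In the fit to counts this was a log2 fold change of 1.70 (standard error 0.15), or 3.26-fold higher, which ran from 1.58 to 1.84 when each library was left out in turn.

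*Car1*, the slower but abundant enzyme of red cells, which is also made in the colon, had 52.2, 58.2 and 51.1 FPKM in the MSC-derived libraries and 6.76, 7.5 and 8.72 FPKM in the endogenous ones. The 2 groups lay far apart and were tight within themselves, with coefficients of variation of 7.08% and 12.9%. The log2 fold change was 2.69 (standard error 0.14), or 6.44-fold.

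*Car3* showed the widest gap. It encodes a cytosolic enzyme of low hydratase activity that is abundant in fat cells, slow muscle and liver. Its level was 294, 299 and 297 FPKM in the endogenous libraries, from 9383 to 9978 counts each, and 1.06, 0.7 and 0.77 FPKM in the MSC-derived libraries, from 22 to 35 counts each. The endogenous values differed among themselves by little, with a coefficient of variation of 0.997%, also in replicate 1, which stood apart otherwise. The log2 fold change was -8.57 (standard error 0.14), or 380.1-fold lower in the MSC-derived cells. The ratio of the summed counts, scaled for depth, was 352, with a 95% interval from counting (exact binomial) of 282 to 444.

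*Car13*, a cytosolic enzyme found at modest levels in many tissues, had 5.09, 4.17 and 5.02 FPKM in the MSC-derived libraries and 1.47, 3.1 and 3.46 FPKM in the endogenous ones. Endogenous replicate 1 lay lowest, at 73 counts against 156 and 182. The groups did not overlap, but the log2 fold change of 0.71 (standard error 0.33) did not pass the threshold, and without endogenous replicate 1 it was 0.36.

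*Car8* encodes a relative that lacks catalytic activity and binds the inositol trisphosphate receptor, a calcium channel best known in Purkinje neurons. It had 0.67, 0.63 and 0.7 FPKM in the MSC-derived libraries and 5.28, 6.46 and 5.89 FPKM in the endogenous ones. All endogenous libraries lay well above the MSC-derived ones, with 687 to 851 counts against 81 to 91. On the log2 scale the difference was -3.26 (standard error 0.15), or 9.56-fold lower.

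*Car5b*, the mitochondrial enzyme, which supplies bicarbonate to carboxylation reactions, was also lower. It had 1.61, 1.72 and 1.1 FPKM in the MSC-derived libraries and 3.88, 4.93 and 5.2 FPKM in the endogenous ones, a log2 fold change of -1.78 (standard error 0.23). The groups did not overlap. Its expected counts were fractional, as were those of *Car9* and *Car14*, which shows that the authors' quantification divided some reads between these genes and others, whereas the counts of the other 7 members were whole (within 0.005) in every library.

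The promoter table held 5 of the 10 members (*Car4*, *Car5b*, *Car9*, *Car12* and *Car14*). The 250 bases before the annotated start of the 3 tested cell-surface members are printed because these genes differed in direction and because *Car9* and *Car12* are both known from hypoxic tissue. They come from RefSeq (GRCm38.p6), which is not the build named in the labels (mm9), and were matched by symbol. Capitals mark ACGTG, the form with A of the HIF core (A or G, then CGTG), searched on both strands, so that it also reads CACGT. The form GCGTG was not searched, so a promoter without a match may still hold that form.
Car9, chr4:43506776-43507025, plus strand: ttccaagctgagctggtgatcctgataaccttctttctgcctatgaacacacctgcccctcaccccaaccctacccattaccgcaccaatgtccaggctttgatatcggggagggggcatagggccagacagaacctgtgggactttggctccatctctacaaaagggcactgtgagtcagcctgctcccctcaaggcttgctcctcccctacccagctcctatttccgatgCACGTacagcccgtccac
Car12, chr9:66713436-66713685, plus strand: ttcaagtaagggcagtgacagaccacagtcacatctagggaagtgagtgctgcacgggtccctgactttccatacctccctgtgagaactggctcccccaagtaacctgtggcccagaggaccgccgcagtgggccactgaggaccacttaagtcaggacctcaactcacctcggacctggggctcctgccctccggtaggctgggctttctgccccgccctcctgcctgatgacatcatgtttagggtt
Car4, chr11:84957504-84957753, plus strand: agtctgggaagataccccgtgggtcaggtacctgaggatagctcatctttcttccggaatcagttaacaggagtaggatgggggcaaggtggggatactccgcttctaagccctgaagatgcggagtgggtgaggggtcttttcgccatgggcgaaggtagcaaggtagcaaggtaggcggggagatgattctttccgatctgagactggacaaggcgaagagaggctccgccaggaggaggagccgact

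*Car9* held 1 match, beginning at position -18 from the start, and *Car12* and *Car4* held 0 in this window. *Car14* held 1, at position -7, and *Car5b* held 0 of ACGTG, with GCGTG not counted. Of all 32851 promoters in the table, 16.6% held the motif in the same 250 bases, so a match is common and describes the letters only.

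Cell-surface members split in direction. *Car12* encodes a transmembrane enzyme of epithelia that is also present in hypoxic tissue. It had 29.3, 26.2 and 29.3 FPKM in the endogenous libraries and 0.29, 0.17 and 0.11 FPKM in the MSC-derived ones. The MSC-derived values rested on 25, 14 and 11 counts, and the endogenous ones on 2190 to 2557. The log2 fold change was -7.23 (standard error 0.22), and the ratio of summed counts was 139 (95% counting interval 105 to 187) in favour of the endogenous cells.

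*Car9*, the transmembrane enzyme known as a target of the hypoxia-inducible factor HIF, went the other way. It had 3.75, 3.2 and 3.37 FPKM in the MSC-derived libraries and 0.03, 0.33 and 0.32 FPKM in the endogenous ones. The MSC-derived libraries held 124 to 152 counts, endogenous replicates 2 and 3 held 14 each, and endogenous replicate 1 held 1. Its fitted log2 fold change was 3.71 (standard error 0.72), and it was 3.14 without endogenous replicate 1 and 4.05 without replicate 2.

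*Car4*, which is held on the outer membrane by a lipid anchor and lines capillaries of the lung and other organs, had 2.82, 1.5 and 1.68 FPKM in the MSC-derived libraries, from 77, 39 and 42 counts. The endogenous libraries held 0, 4 and 1 counts, so the size of the difference is loosely fixed. The ratio of summed counts was 32.6, with a 95% counting interval of 13.7 to 102. The fitted log2 fold change of 4.79 (standard error 0.92) was 6.31 without endogenous replicate 2, the library with 4 counts, and 4.20 without endogenous replicate 1, which has none.

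*Car14*, a transmembrane enzyme of kidney, liver, retina and brain, had at most 5.12 expected counts in any library. MSC-derived replicate 2 and endogenous replicate 1 had 0 counts, which allows up to 3 counts in a library, and no difference was detectable at this depth.

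**Figure D2:**
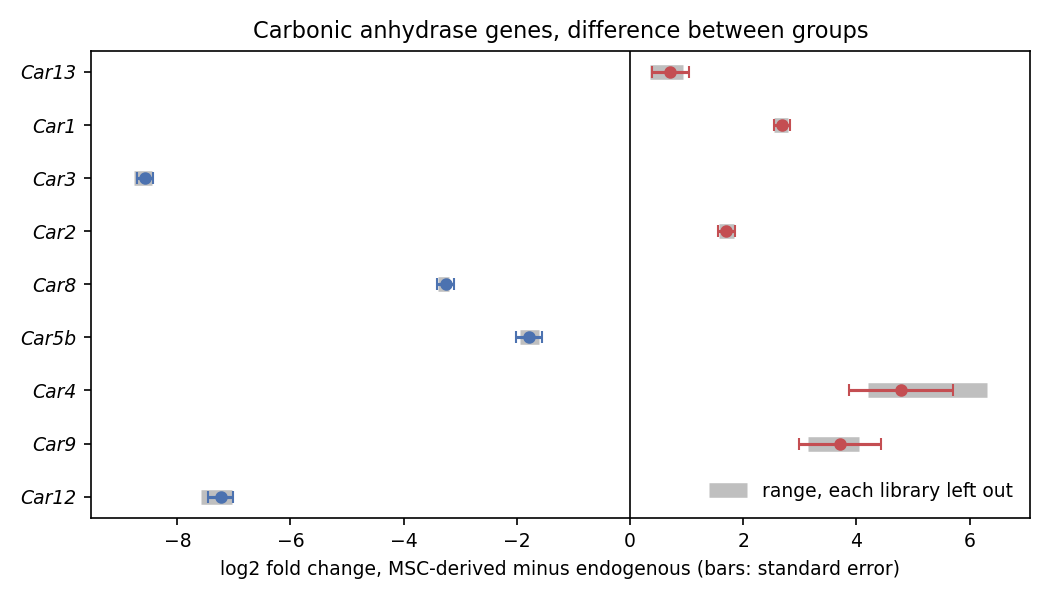
Log2 fold change of the 9 tested members, MSC-derived minus endogenous, with the standard error as a bar and the range over the fits that each left out 1 library in grey. *Car3* and *Car12* lie at -8.57 and -7.23, and *Car4* has the widest grey range, from 4.20 to 6.31.

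The order of levels, compared in FPKM, which corrects for transcript length, differed between the groups. In the MSC-derived cells the order of means was *Car2*, *Car1*, *Car13*, *Car9*, *Car4*, *Car5b*, *Car3*, *Car8*, *Car12* and *Car14*. Neighbours whose ranges overlapped there were *Car4* and *Car5b*, *Car3* and *Car8*, and *Car12* and *Car14*. In the endogenous cells the order was *Car3*, *Car2*, *Car12*, *Car1*, *Car8*, *Car5b*, *Car13*, *Car9*, *Car4* and *Car14*, and the ranges overlapped between *Car9* and *Car4* and between *Car4* and *Car14*.

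As shares of the family's summed FPKM, *Car2* made up 78.8% to 80.5% in the MSC-derived libraries and 15.5% to 21.4% in the endogenous ones. *Car3* made up 67.8% to 72.7% in the endogenous libraries and at most 0.333% in the MSC-derived ones. *Car1* accounted for 15.5% to 17.1% of the MSC-derived sum and for 1.56% to 2.1% of the endogenous one. The 4 cell-surface members together held 1.43% to 2.21% in the MSC-derived libraries and 6.49% to 7.16% in the endogenous ones, of which *Car12* alone was 6.36% to 7.06%. The family's sum was 319 to 340.4 FPKM in the MSC-derived libraries and 412 to 433 FPKM in the endogenous ones. In TPM, which sums to the same total in every library, it was 394 to 421 and 719.7 to 858.

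**Figure D3:**
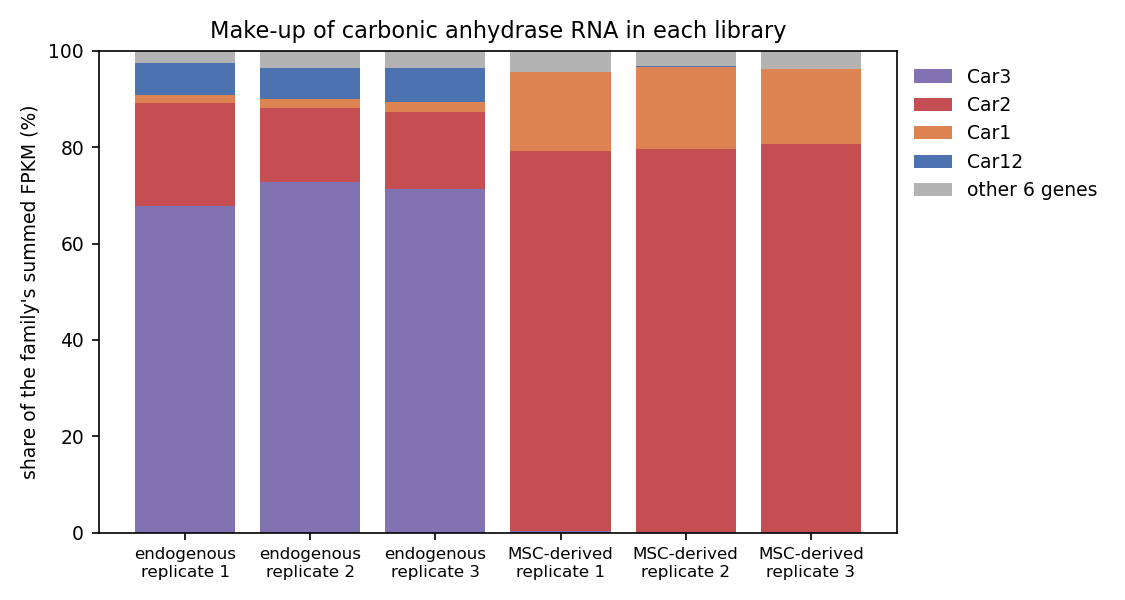
Share of the summed FPKM of the 10 carbonic anhydrase genes in each library (%), stacked, with the 6 least abundant genes pooled in grey. *Car3* fills 67.8% to 72.7% of each endogenous bar and *Car2* 78.8% to 80.5% of each MSC-derived bar.

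In the RefSeq gene table *Car13*, *Car1*, *Car3* and *Car2* follow one another on chromosome 3 as successive protein-coding genes. The log2 fold changes of these neighbours, in that order, were 0.71, 2.69, -8.57 and 1.70. *Car3*, the most abundant member in the endogenous cells and among the lowest in the MSC-derived ones, thus lay between 2 genes that were higher in the MSC-derived cells.

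Of the other carbonic anhydrase genes, which are not members, *Car6*, the secreted salivary enzyme, had 23, 29 and 10 counts in the MSC-derived libraries and 0, 0 and 5 in the endogenous ones. It was called higher by edgeR's quasi-likelihood test (log2 fold change 3.47, standard error 1.17, adjusted p = 0.0344), and the call was lost in 6 of 16 alternatives, among them the fit without MSC-derived replicate 2 (adjusted p = 0.139). *Car11*, which encodes a secreted relative without catalytic activity, had 53, 25 and 47 counts against 68, 123 and 107 and was called lower (log2 fold change -1.32, standard error 0.43, adjusted p = 0.0301), a call lost in 6 of 17 alternatives. *Car7*, a cytosolic enzyme of neurons, had 26, 5 and 11 counts against 0, 21 and 24, with overlapping groups (adjusted p = 0.902). *Car5a*, *Car10* and *Car15* were too low to be tested, with at most 12, 11 and 40 counts in any library.

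Marker lists of cell types known for particular members were set beside them. The erythroid list stood beside *Car1* and *Car2*: all 17 measured genes of 19 listed were called higher, and their log2 fold changes had a median of 1.81 and a range of 1.10 to 2.62. Its summed level was 64413 to 65922 FPKM in the MSC-derived libraries and 9192 to 14083 FPKM in the endogenous ones, and its defining markers *Alas2* and *Klf1*, of haem synthesis and erythroid transcription, were well above 0 in every library. The log2 fold change of *Car1*, 2.69, was above the whole range of the list, and that of *Car2*, 1.70, was within it. The part of red cell precursors in either value was not tested.

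The osteoclast list, also relevant to *Car2*, had 7 of 11 tested genes higher and 1 lower (*Nfatc1*, a transcription factor named here after its value was seen). Its sum was 562 to 577 FPKM against 264 to 313 FPKM. The gap between the sums rests largely on *Acp5*, *Mmp9* and *Tcirg1*. *Mmp9* (mean 166 against 22.3 FPKM) and *Tcirg1* (90.6 against 14.1 FPKM) were also named after their values were seen. *Nfatc1* went the other way (18.4 against 92.2 FPKM). The defining markers of the list were mixed. *Acp5*, an acid phosphatase that macrophages also make, had 117 ± 4.63 FPKM against 24.9 ± 10.7 FPKM (SD, n = 3; log2 fold change 2.12, adjusted p = 5.61e-04), and *Ctsk*, the collagen-degrading cathepsin, had 124 ± 5.16 FPKM against 117 ± 16.9 FPKM (adjusted p = 0.805), though it was called lower without endogenous replicate 1 (-0.20, adjusted p = 0.00139). *Calcr*, the calcitonin receptor, was too low to be tested, at 0 in all 3 MSC-derived libraries and at 0, 0 and 10 counts in the endogenous ones. *Ocstamp* and *Dcstamp*, which are needed for cell fusion, had at most 37 and 18 counts in any library. The part of osteoclasts in the level of *Car2* was not tested.

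For *Car3*, the fat and muscle lists were examined. In the fat cell list 7 of 12 tested genes were higher and 4 lower, and its sum was 865 to 898 FPKM against 352 to 368 FPKM, the opposite direction to *Car3*. Those higher included *Fabp4*, *Pparg*, *Cd36* and *Lpl*, lipid-handling genes that macrophages also express. Those lower were *Adipoq*, *Cfd*, *Plin4* and *Cidec*. Its defining gene *Adipoq*, the fat cell hormone adiponectin, was lower, with 12 to 28 counts against 3311 to 4153 (-7.43 on the log2 scale, adjusted p = 4.09e-07 by edgeR's quasi-likelihood test). *Cidec*, a lipid droplet gene, had 0 to 6 counts against 15 to 109 (adjusted p = 0.0275 by edgeR), and its call was lost in 6 of 16 alternatives, among them the replicate block (adjusted p = 0.127) and each fit without an MSC-derived library. *Plin1* and *Lep* were at or near 0, with at most 18 and 11 counts in any library. The defining muscle markers were near 0 as well: *Acta1* had at most 40.7, *Ckm* at most 24 and *Myh4* at most 3 counts in any library, and 2 of 9 tested muscle genes were higher and 2 lower, with sums of 16.1 to 19.2 FPKM against 32.8 to 34.5 FPKM. Of these sums *Tnni2* alone had a mean of 5.17 FPKM in the MSC-derived and 26.3 FPKM in the endogenous libraries. The gap between the sums rests on this gene and does not describe the list. The muscle genes called were *Tnnt1* and *Myoz1* (higher) and *Tnni2* and *Ttn* (lower), of which *Tnnt1* lost its call in 2 of 17, *Myoz1* in 5 of 16 and *Ttn* in 8 of 17 alternatives. *Ckm* was called higher without endogenous replicate 1 (2.07, adjusted p = 0.00993), and *Acta1* in both limma fits on log2(FPKM + 1) (0.64). The part of fat or muscle cells in the level of *Car3* was not tested.

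*Car3*, *Car12*, *Car8* and *Car5b* were lower together with the 18 cartilage genes, whose median log2 fold change was -6.10, and with 9 of 10 bone-forming genes, whose median was -5.51. The cartilage sum was 2378 to 2451 FPKM against 26148 to 28452 FPKM, and the bone sum 1095 to 1106 FPKM against 30414 to 42836 FPKM. The exception among the bone genes was *Mepe*, at -2.27 and not called except without endogenous replicate 1 (-2.90, adjusted p = 4.61e-06). The log2 fold changes of *Car3*, *Car12*, *Car8* and *Car5b* were -8.57, -7.23, -3.26 and -1.78. *Car4* stood beside the endothelial list, of which 6 of 11 genes were higher and 0 lower, with a sum of 58.8 to 61.9 FPKM against 22.6 to 36.6 FPKM. *Car4* and *Car9*, like *Car1*, *Car2* and the uncalled *Car13*, were also higher together with the leukocyte list. The median of that list was 4.56 and its sum was 136031 to 143379 FPKM against 3895 to 6436 FPKM. The part of these cell types in the members' levels was not tested.

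**Figure D4:**
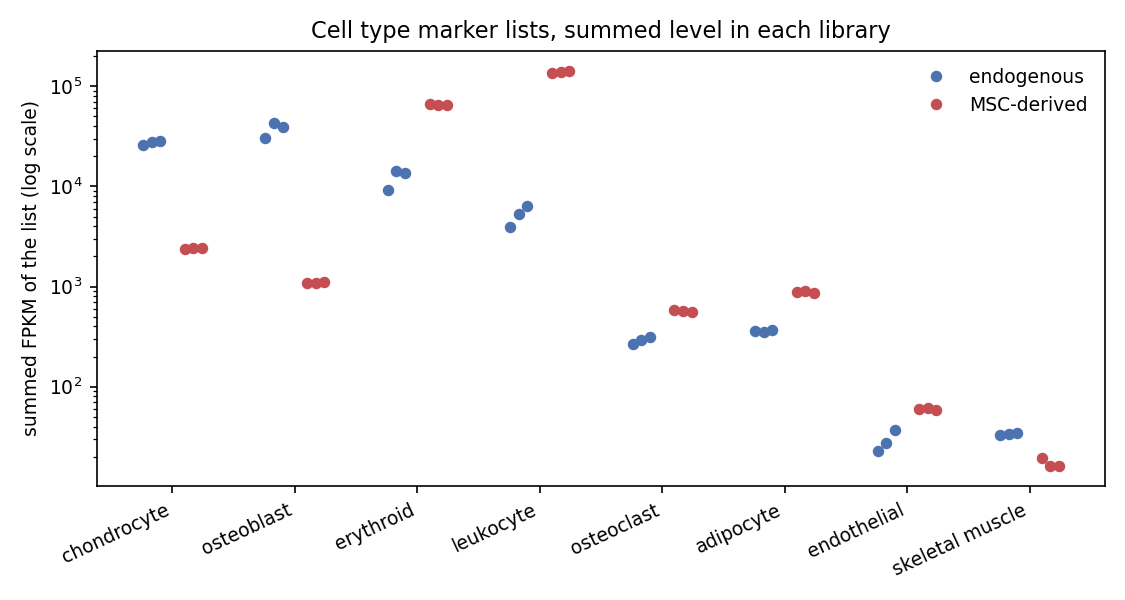
Summed FPKM (log scale) of each cell type marker list in the 3 endogenous (blue) and the 3 MSC-derived (red) libraries. Cartilage, bone-forming and muscle lists are higher in the endogenous libraries, the muscle list through *Tnni2*, and the other 5 lists are higher in the MSC-derived ones.

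Carbonic anhydrases work with proteins that carry bicarbonate, protons and lactate across membranes. Of 50 genes listed for these roles 37 were tested, of which 11 were called higher and 10 lower in the MSC-derived cells, where 31.3% and 30.3% of all genes were so called. Their median was -0.12 on the log2 scale.

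In the SLC4 family of bicarbonate transporters, 1 of 8 tested genes was higher and 5 were lower. The higher gene was *Slc4a1*, the red cell chloride-bicarbonate exchanger that works with *Car2* in carrying CO2, with 70 ± 0.237 FPKM against 18.5 ± 2.2 FPKM (SD, n = 3). Its log2 difference was 1.80 (standard error 0.10; adjusted p = 3.84e-06), beside 1.70 for *Car2* and an erythroid median of 1.81. *Slc4a7* and *Slc4a4*, which bring bicarbonate in with sodium, had log2 differences of -1.16 (adjusted p = 2.23e-05) and -1.80 (adjusted p = 0.00841), and *Slc4a3*, a chloride-bicarbonate exchanger of heart and brain, had -2.51 (adjusted p = 1.18e-04). *Slc4a2*, the exchanger through which osteoclasts release bicarbonate, fell by 0.41 (adjusted p = 0.0295), but the call was lost in 10 of 17 alternatives, where its adjusted p reached 0.147. *Slc4a5*, with 0 to 7 counts against 15 to 121, had the largest decrease of the family (-4.08, adjusted p = 0.0208), a call lost in 4 of 16 alternatives. They were the fits without MSC-derived replicate 2 (adjusted p = 0.0571) or 3 (adjusted p = 0.0846), in each of which 3 genes of the family were called lower, and both limma fits on log2(FPKM + 1), where the value was -0.45 (adjusted p = 0.101 and 0.133).

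In the SLC26 anion exchangers, 2 of 7 tested genes were higher and 2 lower. *Slc26a2*, the sulfate transporter that cartilage needs to sulfate its proteoglycans, fell by 2.72 on the log2 scale (adjusted p = 8.87e-07), from 42.2 ± 4.25 to 6.94 ± 0.701 FPKM (SD, n = 3). *Slc26a7*, a chloride and bicarbonate carrier, had the largest decrease, at 2 to 9 counts against 298 to 623 (log2 fold change -6.58, adjusted p = 2.74e-05). *Slc26a10* had the largest increase (2.16, adjusted p = 0.0233), which was lost in 5 of 17 alternatives, among them every fit without an MSC-derived library, where 1 SLC26 gene was called higher. The other gene called higher was *Slc26a11* (1.60, adjusted p = 1.52e-04). *Slc26a6* had 132 to 166 counts against 37 to 131, with overlapping groups (adjusted p = 0.210).

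Of the proton and lactate exporters, 4 of 13 tested genes were higher and 3 lower. *Slc16a3*, the lactate exporter of glycolytic cells, had 212 ± 9.43 FPKM against 59.2 ± 6.84 FPKM (SD, n = 3; log2 fold change 1.72, adjusted p = 4.7e-06), and *Hvcn1*, the voltage-gated proton channel of phagocytes, had 121 ± 2.23 FPKM against 20 ± 1.85 FPKM (2.49, adjusted p = 4.09e-07). The largest increase was that of *Slc9a9*, a sodium-proton exchanger of endosomes (4.02, standard error 0.12, adjusted p = 2.07e-07). *Slc16a7*, a lactate and pyruvate carrier, was also higher (3.37, adjusted p = 9.88e-07), and *Bsg*, the chaperone of lactate carriers, and *Slc9b2* were lower (-0.62, adjusted p = 4.95e-04, and -1.28, adjusted p = 0.0361). The call of *Slc9b2* was lost in 9 of 17 alternatives, where its adjusted p reached 0.124. The largest decrease was that of *Slc9a2*, with 1 count in all 3 MSC-derived libraries together and 314 in the endogenous ones, a ratio of 305 with a 95% counting interval of 54.3 to 12071.

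Among gas channels and acid sensors, 4 of 9 tested genes were higher and 0 lower by edgeR. Without endogenous replicate 1 the lower count was 3, in a fit that called 5686 of all 14728 genes tested lower. DESeq2 called 2. *Gpr65*, a proton-sensing receptor of leukocytes, had the largest increase, with 1822 to 1973 counts against 0, 23 and 17 (log2 difference 7.05, standard error 0.55; adjusted p = 2.21e-05). *Rhag*, the red cell channel for ammonia and CO2, rose by 1.84 (adjusted p = 1.19e-05), and the other two called higher were *Rhd* (1.99) and *Gpr132* (2.69). *Aqp1*, the water channel that also passes CO2, had 139 ± 7.28 FPKM against 138 ± 26.1 FPKM (SD, n = 3), with a log2 fold change of -0.11 (adjusted p = 0.510), and it was called lower (-0.32, adjusted p = 5.05e-06) without endogenous replicate 1.

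**Figure D5:**
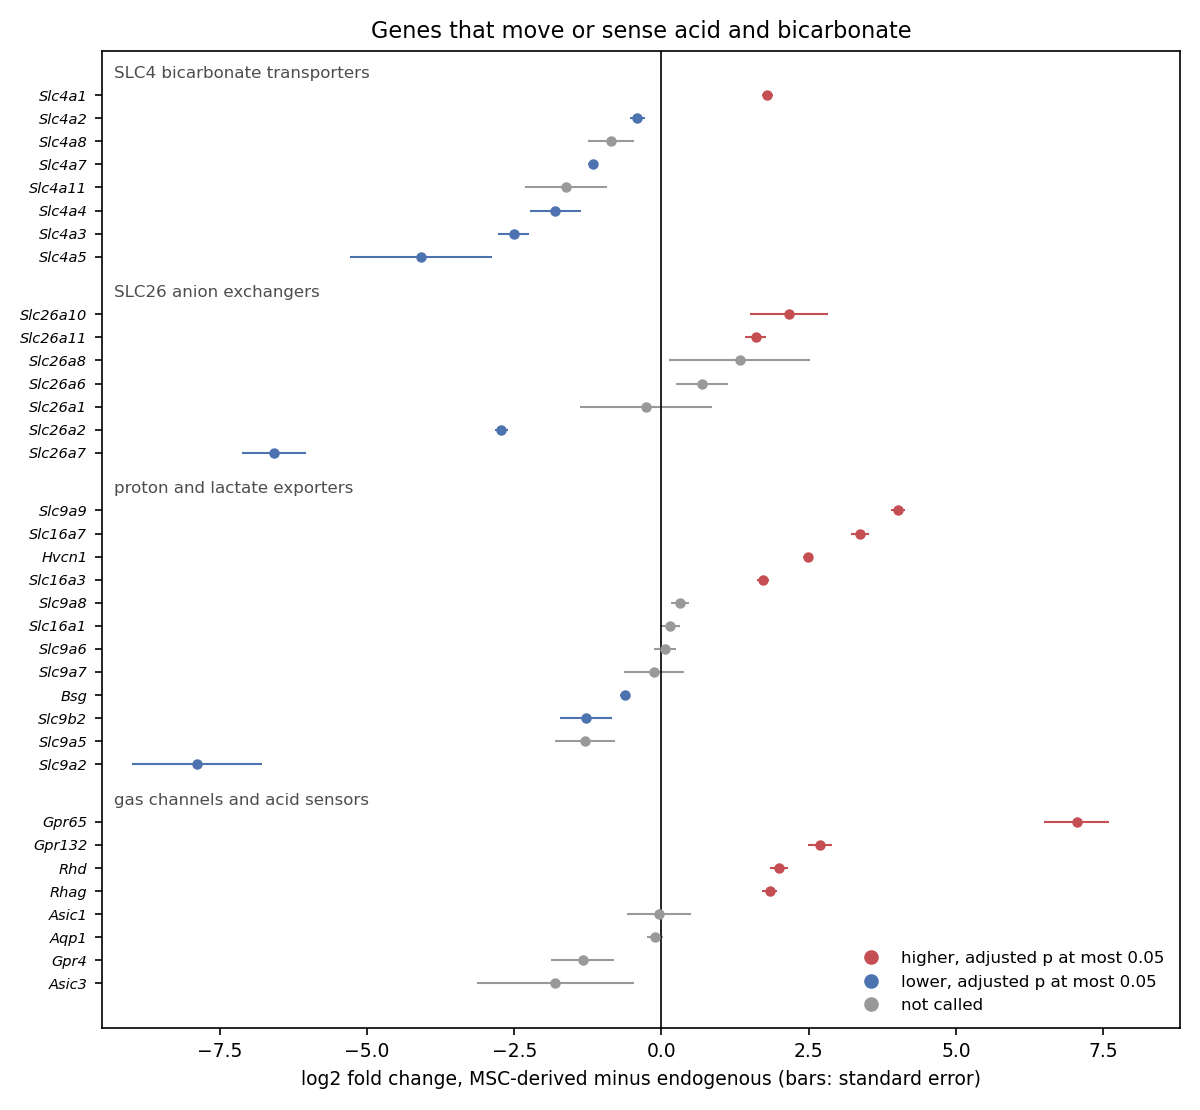
Log2 fold change, MSC-derived minus endogenous, of 35 tested genes that carry or sense bicarbonate, protons or lactate, with standard errors as bars. Red marks 11 genes called higher, blue 10 called lower and grey 14 not called.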

How the data were processed

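Bulk RNA-seq of 3 MSC-derived and 3 endogenous libraries was used. SOAPnuke (read filtering), HISAT2, Bowtie2 (alignment) and RSEM (quantification) were used by the authors. The labels name mm9, Bowtie2 2.2.5 and RSEM 1.2.12, and the paper other versions. For each gene the authors deposited expected counts (not normalized), FPKM (scaled by transcript length and depth) and TPM (scaled to the same total per library). A deposited scaled signal (counts times a factor per library) and the authors' group averages were not used, and 0 single-sample columns were left unmapped.

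Expected counts were rounded (20.6% of values changed) and tested in edgeR 4.0.16 (R 4.3.3: TMM, filterByExpr, glmQLFit, glmQLFTest, no block), with Benjamini-Hochberg adjustment over 14289 genes and a threshold of 0.05. The standard error is the fold change divided by the square root of F. Positive log2 fold changes mean higher in MSC-derived cells. Overlap was judged on TMM-scaled CPM. The code was tested on simulated counts. Alternatives were DESeq2 1.42.0, limma 3.58.1 on log2 of the FPKM plus 1 or plus 0.1, further normalizations and filters, the replicate number as a block, and each library left out in turn. Figures used matplotlib 3.10.9.

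Members, gene lists and tests were chosen with earlier results of these data known. Named genes are all members, the measured relatives, preset partners, the largest increase and decrease per acid-base list among called genes without overlap, and the defining markers of each list. The methods give 3 mice for each kind of sample, and whether each library came from 1 mouse is not stated, so p-values measure the spread between these libraries, which may be technical. As a coefficient of variation fitted over the tested genes, this spread was 6.77% in the MSC-derived and 35.3% in the endogenous group. The test used a spread shared by both groups. Some listed genes are counted but not reported here by name.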

Additional observations from a re-analysis of the deposited data

How the results depend on the processing

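The counts of members called, 4 higher and 4 lower, were the same under all 17 alternatives except limma on log2(FPKM + 1) and log2(FPKM + 0.1) with the filter, which gave 5 higher. No member's log2 fold change reversed, but limma on log2(FPKM + 1), a scale that understates changes of low genes, gave smaller values for some, such as 1.47 for *Car4* and -4.62 for *Car12*, and a larger one for *Car2* (1.83 against 1.70). Total counts without normalization factors moved the median of all genes from 0.05 to 0.16. Nothing in the labels or methods ties same-numbered samples to one mouse or day, and they did not deviate together (correlations of same-numbered deviations 0.0129, 0.00221 and 0.0178), and the replicate block left 10 acid-base genes higher and 8 lower, with 0 relatives, 1 SLC26 exchanger and 1 muscle gene higher and 1 muscle gene lower. Other counts that moved by more than 1.5 times were small. Relatives called higher went from 1 to 2 (DESeq2, unfiltered limma) or 0 (stricter filter). Lower gas channels and sensors went from 0 to 2 (DESeq2) or 1 (upper-quartile, no filter). Lower osteoclast genes went from 1 to 2 (DESeq2, no filter). Muscle genes called higher went from 2 to 1 (stricter filter) or 4 (unfiltered limma), and those lower from 2 to 1 in all 3 limma fits. With each library left out in turn, the ranges were 0 to 1 for higher relatives, 3 to 6 for lower SLC4 genes, 1 to 2 for higher SLC26 genes, 0 to 3 for lower gas channels and sensors, 1 to 4 for lower osteoclast genes, 0 to 4 for higher and 1 to 4 for lower muscle genes; the cause was not tested. Directions reversed without a call in those fits for *Aqp1* (0.00 with total counts, 0.02 in limma), *Car7* (0.23 without MSC-derived replicate 2, 0.11 and 0.29 without endogenous replicates 2 and 3, 0.19 in limma with 0.1, and -0.90 to 0.29 over the fits that each left out a library) and *Ctsk* (0.08 with total counts, 0.00 without MSC-derived replicate 1, 0.05 without endogenous replicate 3, 0.09 and 0.10 in limma, and -0.20 to 0.05 over the fits that each left out a library). Depth limits *Car4*, *Car14* and the low levels of *Car3*, *Car9* and *Car12* most.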

Other observations

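A pair of receptor tyrosine phosphatases carries a carbonic anhydrase-like domain outside the cell, without enzyme activity, which serves in binding other surface proteins. *Ptprz1* had 12, 9 and 17 counts in the MSC-derived libraries and 560, 380 and 447 in the endogenous ones, a log2 difference of -5.24 (standard error 0.32; adjusted p = 5.86e-06 by edgeR's quasi-likelihood test). *Ptprg* had 41, 95 and 43 counts against 288, 350 and 397, a difference of -2.60 (standard error 0.36; adjusted p = 5.65e-04). Both were lower in all 3 MSC-derived libraries than in any endogenous one, as were *Car3*, *Car5b*, *Car8*, *Car12* and 34.1% of all genes tested.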
